A study of Mus musculus with 9 samples.

Results

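The 10 genes described here make prostaglandins, thromboxane and leukotrienes from arachidonic acid. They are Pla2g4a, Ptgs1, Ptgs2, Ptges, Hpgds, Tbxas1, Alox5, Alox5ap, Lta4h and Ltc4s, listed by name as genes of this pathway, with earlier results of these data known, and matched by symbol to the Ensembl identifiers of the count lists. All 10 matched, out of 55487 identifiers counted, and all 10 passed the filter on low counts, which left 14312 genes. Of these 10, Tbxas1 passed only through its knock-out libraries. RNA was sequenced from RAW264.7 cells, an established mouse macrophage line, which had received no stimulus. The 3 genotypes, with 3 libraries each, were wild-type (CEBPD-WT) cells, C/EBPδ knock-out (CEBPD-KO) cells and ΔTAD (CEBPD-TAD) cells. CRISPR guides removed the transactivation domain of the transcription factor C/EBPδ from its own gene in ΔTAD cells, which leaves the DNA-binding part, while the knock-out cells arose from out-of-frame deletions with the same guides. Edited cells were grown from single selected cells, and the series' design text speaks of 3 independent clones without saying whether each library of a genotype is a separate clone. If they are not, the p-values measure a spread between libraries that may be technical, and a genotype cannot be told apart from its clone. Knock-out against wild-type and ΔTAD against wild-type share the wild-type libraries.

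Eicosanoids are short-lived lipid signals. Cytosolic phospholipase frees arachidonic acid from membrane lipids, and the acid then enters one of several branches. In the prostanoid branch, cyclooxygenases turn it into prostaglandin H, from which terminal synthases make prostaglandin E, prostaglandin D or thromboxane. In the leukotriene branch, arachidonate lipoxygenase, helped by its activating protein in the nuclear membrane, makes leukotriene A, which a hydrolase turns into the neutrophil attractant leukotriene B or a synthase joins to glutathione as leukotriene C. Macrophages are a major source of both, and the inducible cyclooxygenase Ptgs2 is among the best known genes that they switch on in inflammation.

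Each library held 16113306 to 20981829 counts on genes, and levels are given as counts per 1000000 counts of the TMM-scaled library (CPM) unless named otherwise. ΔTAD replicate 1 stood apart from the others. Genes for ribosomal RNA took 11.7% of its counts, against 0.346% to 1.22% in the other 8 libraries, and the changes of the 10 genes without it are given below. The targeted gene, Cebpd, does not check the labels, since the edits leave most of its transcript: it was at 6.51 ± 0.674 CPM in wild-type, at 5.44 ± 0.201 in knock-out and at 5.44 ± 0.669 in ΔTAD macrophages (SD, n = 3). The label of macrophages was met, as 9 of 10 macrophage markers were above 3 counts in every library (Mrc1 had at most 8). The summed level of these markers was 3467 to 3658 CPM in wild-type, 4603 to 4983 in knock-out and 7102 to 7280 in ΔTAD macrophages, with Lyz2 alone at means of 1167, 2114 and 4192 CPM. Mast cells and platelets, which also make eicosanoids, left little trace. Of 8 mast cell markers 6 had no count in any library, among them Kit and Cpa3, and the list summed to at most 0.768 CPM. Of 5 platelet markers 2 had none, and the list summed to 0.333 to 1.11 CPM. Of 3 endothelial markers none was at 0 throughout, and their sum moved with genotype, at 2.66 to 4.04 CPM in wild-type, 0.665 to 0.844 in knock-out and 0.144 to 0.420 in ΔTAD libraries. Its part in the results below was not tested.

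In knock-out macrophages, 3 of the 10 genes were lower than in wild-type (Pla2g4a, Ptgs1 and Ptgs2), 4 were higher (Hpgds, Tbxas1, Alox5ap and Ltc4s) and 3 did not pass the test (Ptges, Alox5 and Lta4h). In ΔTAD macrophages, 4 were lower (the same 3 and Ptges), 4 were higher (Hpgds, Alox5, Alox5ap and Ltc4s) and 2 did not pass (Tbxas1 and Lta4h). The test was edgeR's quasi-likelihood test on counts with Benjamini-Hochberg adjustment over all 14312 genes, and a gene was called at an adjusted p under 0.01. Of all genes tested, 22.4% were called lower and 22.8% higher in knock-out macrophages, and 23.4% lower and 26.3% higher in ΔTAD macrophages. The counts among the 10 genes, 3 and 4 and then 4 and 4, were each within 2 genes of what these shares give for 10 genes, so the numbers of calls do not set the 10 genes apart. Regardless of sign, the log2 fold change of the 10 genes had a median of 0.63 for knock-out and of 1.21 for ΔTAD macrophages, against 0.24 and 0.27 over all genes tested. The 10 genes were chosen with earlier results of these data known, so this gap is a description and no evidence on the pathway. With Tbxas1, which had at most 3 counts in wild-type libraries, set to its lower bound, the ΔTAD median was 1.09. The signed medians were small, 0.11 and 0.17 against -0.00 for all genes in both, since genes of the pathway lay on both sides. The lower calls were the phospholipase, the cyclooxygenases and, in ΔTAD macrophages, the prostaglandin E synthase. In neither genotype was a gene of the leukotriene branch among them, but the 10 hold only 4 such genes, too few to set against these shares.

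**Figure D1:**
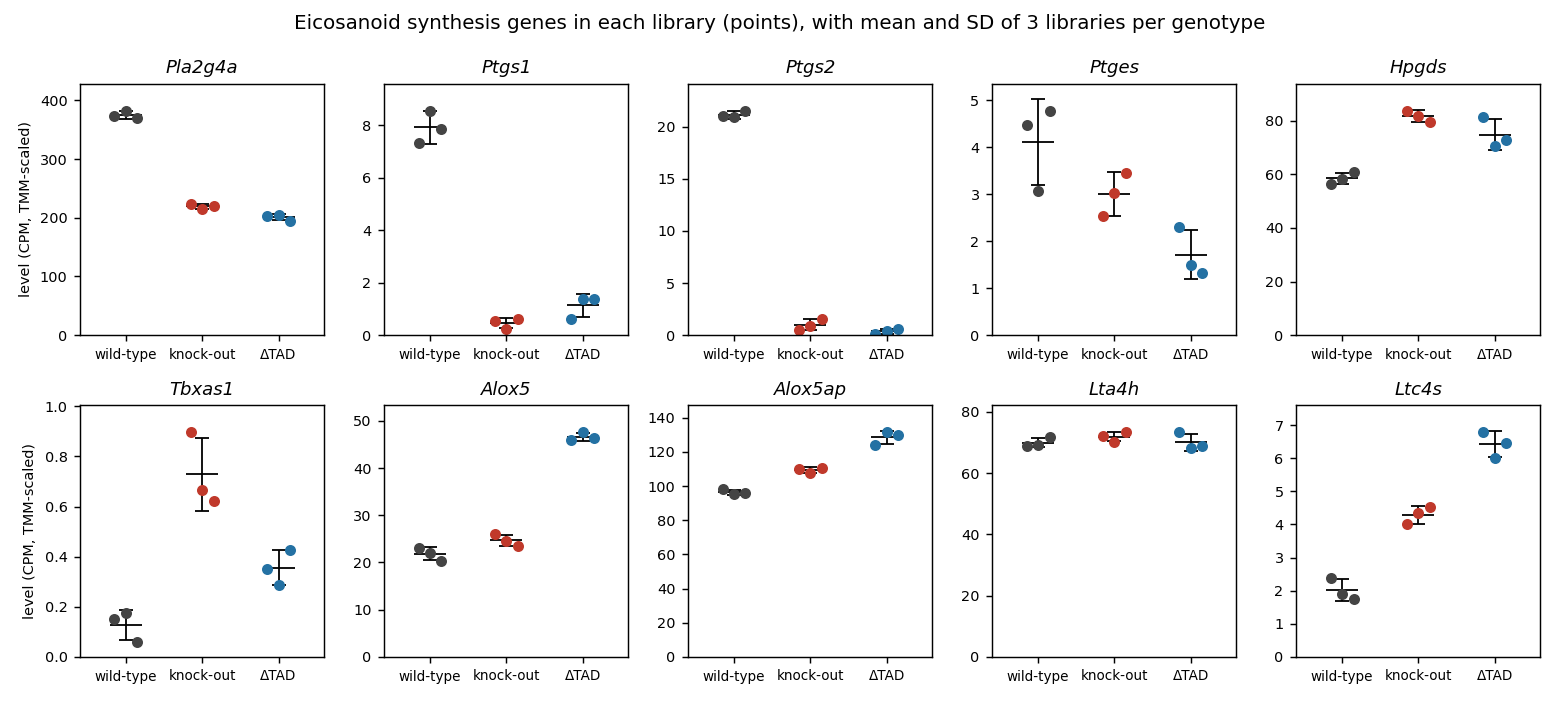
Level of each of the 10 genes in each library, in CPM on a linear axis that starts at 0. Points are the 3 libraries of a genotype, with their mean and SD. Ptgs1 and Ptgs2 drop in both edited genotypes, Ltc4s steps up from wild-type to knock-out to ΔTAD, Alox5 is raised in ΔTAD, and Lta4h lies at 68.3 to 73.3 throughout.

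Pla2g4a encodes the cytosolic phospholipase A that releases arachidonic acid and so feeds both branches. It was at 373, 383 and 370 CPM in the wild-type libraries, at 223, 215 and 220 in knock-out and at 203, 205 and 195 in ΔTAD libraries. Every edited library lay below every wild-type library, and the libraries of a genotype spread little. The level fell 1.71-fold in knock-out macrophages (log2 fold change -0.77, SE 0.0356, adjusted p = 2.51e-15, edgeR) and 1.87-fold in ΔTAD macrophages (-0.90, SE 0.0357, adjusted p = 1.13e-16, edgeR). In bulk RNA, fewer cells that express a gene and less RNA per cell cannot be told apart. Between the edited genotypes the difference was small, 0.13 on the log2 scale (SE 0.0358, adjusted p = 0.00552, edgeR) with knock-out higher. That call was lost without knock-out replicate 1 or 3 or ΔTAD replicate 2 or 3, with library size alone as the scaling, with every gene with at least 1 count, and with the replicate number as a block, at adjusted p from 0.0101 to 0.0403 over these settings (0.0115 with the block).

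The cyclooxygenases Ptgs1 and Ptgs2, which commit arachidonic acid to prostanoids, gave the largest falls among the 10 genes. Ptgs1, known as the constitutive form, was at 7.33, 8.57 and 7.87 CPM in wild-type libraries (7.92 ± 0.620, SD, n = 3), at 0.527, 0.242 and 0.623 in knock-out and at 0.630, 1.39 and 1.38 in ΔTAD libraries. These are 130 to 148 counts in wild-type, 4 to 11 in knock-out and 9 to 29 in ΔTAD libraries. Wild-type libraries stood far above all others. The fall was 16.6-fold in knock-out (log2 fold change -4.05, SE 0.238, adjusted p = 2.99e-13, edgeR) and 6.62-fold in ΔTAD macrophages (-2.73, SE 0.193, adjusted p = 9.03e-12, edgeR).

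Ptgs2, the inducible form, was measured here without a stimulus. It was at 20.99, 20.9 and 21.6 CPM in wild-type libraries (21.1 ± 0.359, SD, n = 3), at 0.527, 0.846 and 1.59 in knock-out and at 0.140, 0.384 and 0.571 in ΔTAD libraries. Counts were 356 to 421 in wild-type, 10 to 28 in knock-out and 2 to 12 in ΔTAD libraries. No edited library came near the wild-type range, while knock-out and ΔTAD libraries overlapped. Ptgs2 fell 21.5-fold in knock-out (log2 fold change -4.42, SE 0.172, adjusted p = 1.04e-16, edgeR) and 53.1-fold in ΔTAD macrophages (-5.73, SE 0.203, adjusted p = 1.24e-17, edgeR). Without ΔTAD replicate 1, the ΔTAD value moved by 0.26 on the log2 scale, the largest move among the 10 genes.

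Set per length, as CPM per kilobase of exon (RPKM), the summed level of both cyclooxygenases was 6.66 ± 0.163 in wild-type macrophages (SD, n = 3). It was 0.335 ± 0.149 in knock-out macrophages and 0.372 ± 0.156 in ΔTAD macrophages, which is 19.9-fold and 17.9-fold lower. The ranges of the sums overlapped between the edited genotypes. Ptgs2 made up 70.8%, 67.4% and 69.9% of the sum in wild-type libraries. In knock-out libraries it made up 45.9%, 74.8% and 68.3%, a wide spread (63.0% ± 15.2) at these low counts, and in ΔTAD libraries 15.9%, 19.0% and 25.98%. The ΔTAD libraries lay below all others, so that Ptgs1 was the larger part in ΔTAD macrophages. Without ΔTAD replicate 1, the ΔTAD mean share was 22.5% and the sum 0.461 RPKM, 14.4-fold below wild-type. The shares are a description with no test: between 3 libraries and 3, the smallest p that an exact permutation test allows is 0.1.

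**Figure D2:**
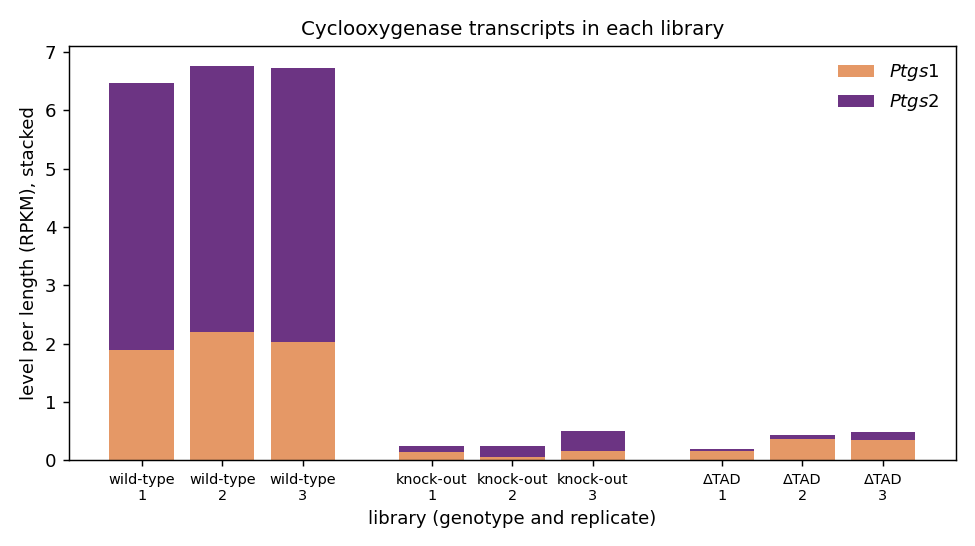
Level of Ptgs1 and Ptgs2 per length of exon (RPKM), stacked as 1 bar for each library on a linear axis that starts at 0. The edited genotypes reach similar sums, 0.335 and 0.372 RPKM, with mean Ptgs2 shares of 63.0% and 20.3%.

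Directly compared, Ptgs1 was lower in knock-out than in ΔTAD macrophages, by 2.51-fold (log2 fold change -1.33, SE 0.351, adjusted p = 0.00345, edgeR), and the libraries did not overlap. That call was lost without knock-out replicate 2 (adjusted p = 0.0265) or ΔTAD replicate 2 or 3 (adjusted p = 0.0204 and 0.0200). Ptgs2 had the opposite order, with a fitted difference of 1.31 (SE 0.409), which did not pass the threshold (adjusted p = 0.0117, edgeR). It passed without knock-out replicate 1 (1.63, adjusted p = 0.00211) and without ΔTAD replicate 3 (1.75, adjusted p = 0.00656), and was smaller without knock-out replicate 3 (0.77, adjusted p = 0.158) and without ΔTAD replicate 1 (1.05, adjusted p = 0.0300). It also passed with library size alone (adjusted p = 0.000855) and with every gene with at least 1 count (adjusted p = 0.00262).

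Ptgs2 and Pla2g4a lie beside each other on chromosome 1 of GRCm38, Pla2g4a on the minus strand (chr1:149829618-149961290) and Ptgs2 on the plus strand (chr1:150100031-150108227). They are read away from each other from starts 138741 bases apart, and none of the 3 annotated genes between them was expressed highly enough to be tested. Ptgs1 lies on chromosome 2 (chr2:36230426-36252272, plus strand). The 250 bases before the start of these genes, and of Alox5 (chr6:116410077-116461178, minus strand), are given 5′ to 3′ along the gene from the RefSeq promoters of GRCm38.p6, because they are the members with the largest falls, their neighbour, and the lipoxygenase that rose. Capitals mark letters that match the C/EBP motif TTNNGNAA on either strand or CCAAT on either strand. The windows are chr1:150099781-150100030 (plus) for Ptgs2, chr2:36230176-36230425 (plus) for Ptgs1, chr1:149961291-149961540 (minus) for Pla2g4a and chr6:116461179-116461428 (minus) for Alox5.
Ptgs2: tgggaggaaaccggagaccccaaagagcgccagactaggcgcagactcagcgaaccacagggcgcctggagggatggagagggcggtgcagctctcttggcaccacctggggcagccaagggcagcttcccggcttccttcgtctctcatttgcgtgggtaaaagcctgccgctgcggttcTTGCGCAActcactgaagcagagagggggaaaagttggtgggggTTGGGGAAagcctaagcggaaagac
Ptgs1: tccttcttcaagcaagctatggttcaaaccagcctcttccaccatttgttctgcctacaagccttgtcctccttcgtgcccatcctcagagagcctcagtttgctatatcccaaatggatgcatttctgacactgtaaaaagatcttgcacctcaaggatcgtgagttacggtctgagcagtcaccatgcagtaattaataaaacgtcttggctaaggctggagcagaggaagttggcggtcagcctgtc
Pla2g4a: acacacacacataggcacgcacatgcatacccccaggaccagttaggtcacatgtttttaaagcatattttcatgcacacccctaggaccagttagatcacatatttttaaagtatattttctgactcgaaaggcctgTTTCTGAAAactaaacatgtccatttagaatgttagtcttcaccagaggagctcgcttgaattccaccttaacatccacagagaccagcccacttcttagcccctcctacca
Alox5: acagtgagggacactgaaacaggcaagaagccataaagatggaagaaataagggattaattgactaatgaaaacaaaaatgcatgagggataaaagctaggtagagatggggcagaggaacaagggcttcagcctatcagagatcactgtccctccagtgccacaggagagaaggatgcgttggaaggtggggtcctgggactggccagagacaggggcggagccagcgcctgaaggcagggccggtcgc

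The Ptgs2 window held the palindrome TTGCGCAA, which starts 69 bases before the gene, and TTGGGGAA at 25 bases, which overlaps a match to the NF-kappaB motif, here GGG, any 5 bases and CC on either strand. The Pla2g4a window held TTCTGAAA at 111 bases and an overlapping match on the other strand. No letters of the Ptgs1 or the Alox5 window matched C/EBP or CCAAT. RefSeq gave 10 promoters for 9 of the 10 genes, all except Alox5ap, with 2 for Pla2g4a. The second Pla2g4a promoter, not printed, matched none of these motifs. C/EBP letters were found in 4 of these genes (Ptgs2, Ptges, Hpgds and Pla2g4a), CCAAT in 1 (Lta4h) and NF-kappaB letters in 4 (Ptgs2, Ptges, Alox5 and Lta4h). Counted by promoter, 4, 1 and 4 of the 10 held such letters, beside 36.85%, 33.85% and 45.8% of 32851 promoters of the same length. Of the 4 genes with C/EBP letters, Ptgs2 and Pla2g4a fell in both edited genotypes, Ptges was called lower only in ΔTAD, and Hpgds rose in both. Ptgs1 fell in both edited genotypes without such letters.

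Of the terminal prostanoid synthases, Ptges fell in ΔTAD macrophages, Hpgds rose in both edited genotypes, and Tbxas1 was close to the floor of the counts. Ptges encodes the inducible, membrane-bound synthase of prostaglandin E, which often works with Ptgs2, and lies on the minus strand at chr2:30889471-30929863. It was at 4.49, 3.07 and 4.78 CPM in wild-type, at 2.53, 3.02 and 3.46 in knock-out and at 2.31, 1.49 and 1.33 in ΔTAD libraries. ΔTAD libraries lay below all others, and knock-out libraries overlapped the wild-type range. In ΔTAD macrophages the fall was 2.49-fold (log2 fold change -1.32, SE 0.214, adjusted p = 1.00e-05, edgeR). In knock-out macrophages the fitted value was -0.46 (SE 0.192), which did not pass (adjusted p = 0.0461, edgeR). Knock-out was higher than ΔTAD by 0.86 on the log2 scale (adjusted p = 0.00359, edgeR). That last call was lost without knock-out replicate 2 or 3 or ΔTAD replicate 2 or 3, at adjusted p from 0.0110 to 0.0289.

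The other enzymes with prostaglandin E synthase activity gave smaller fold changes. Ptges3, which is also a co-chaperone, was at 177 ± 9.28 CPM in wild-type macrophages, at 140 ± 12.1 in knock-out and at 142 ± 4.48 in ΔTAD macrophages (SD, n = 3), a fall of 0.34 and 0.31 on the log2 scale (adjusted p = 1.88e-06 and 4.63e-06, edgeR). Ptges2 had a log2 fold change of -0.09 in knock-out (adjusted p = 0.277, edgeR) and of 0.21 in ΔTAD macrophages (adjusted p = 0.00931, edgeR). The ΔTAD call was lost without any one of 6 libraries, wild-type replicate 2 or 3, knock-out replicate 3 or each ΔTAD replicate, at adjusted p from 0.0115 to 0.0643.

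Hpgds, the hematopoietic synthase of prostaglandin D (chr6:65117293-65144908, minus strand), was at 56.5, 58.3 and 60.8 CPM in wild-type, at 83.8, 81.8 and 79.6 in knock-out and at 81.3, 70.4 and 72.9 in ΔTAD libraries. Each edited library exceeded each wild-type library. The rise was 1.40-fold in knock-out (log2 fold change 0.48, SE 0.0453, adjusted p = 1.68e-09, edgeR) and 1.27-fold in ΔTAD macrophages (0.35, SE 0.0456, adjusted p = 4.16e-07, edgeR). Knock-out and ΔTAD libraries overlapped (0.14, adjusted p = 0.0143, edgeR), but without ΔTAD replicate 1, which had the highest ΔTAD level, the difference was called (0.22, adjusted p = 0.000162). The 8 genes tested within 5 Mb of Hpgds had a median of 0.24 in ΔTAD against wild-type and 0.10 in knock-out against wild-type.

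Tbxas1, the thromboxane synthase (chr6:38875404-39084585, plus strand), had 3, 3 and 1 counts in wild-type libraries, 17, 11 and 11 in knock-out and 5, 6 and 9 in ΔTAD libraries. With wild-type at or under the floor of 3 counts per library, the level was at least 4.33-fold higher in knock-out macrophages, where it was called (adjusted p = 0.000124, edgeR). In ΔTAD macrophages it was at least 2.11-fold above the floor and was not called (adjusted p = 0.0328, edgeR). Its gene overlaps Hipk2 on the other strand, which had 2245 to 4433 counts, and the strand setting of the counting is not given in the sources used here. The Tbxas1 counts are therefore uncertain. Tbxas1 also passed the filter on low counts only through the knock-out libraries, where it was highest, so its knock-out call is a description.

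None of the 4 leukotriene genes among the 10 fell against wild-type. Alox5, the arachidonate lipoxygenase that opens the branch, was at 23.1, 21.9 and 20.4 CPM in wild-type, at 25.99, 24.5 and 23.6 in knock-out and at 46.0, 47.6 and 46.4 in ΔTAD libraries. The ΔTAD libraries formed a group of their own, with no overlap with the rest. Alox5 rose 2.13-fold in ΔTAD macrophages (log2 fold change 1.09, SE 0.0596, adjusted p = 5.90e-14, edgeR). Knock-out libraries lay just above the wild-type range, and the difference of 0.18 (SE 0.0654) did not pass (adjusted p = 0.0255, edgeR). Knock-out was 1.89-fold lower than ΔTAD (-0.92, SE 0.0586, adjusted p = 6.43e-12, edgeR).

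Alox5ap, the activating protein that presents arachidonic acid to the lipoxygenase (chr5:149264767-149288153, plus strand), was at 98.1, 95.1 and 95.7 CPM in wild-type libraries. It was at 108 to 111 CPM in knock-out and at 124 to 131 in ΔTAD libraries. The 3 genotypes did not overlap, but the steps were small. The rise was 1.14-fold in knock-out (log2 fold change 0.18, SE 0.0332, adjusted p = 4.25e-05, edgeR) and 1.34-fold in ΔTAD macrophages (0.42, SE 0.0327, adjusted p = 5.71e-11, edgeR). Knock-out was lower than ΔTAD (-0.23, SE 0.0323, adjusted p = 3.06e-06, edgeR). With library size alone as the scaling, both knock-out calls were lost, at adjusted p = 0.0147 against wild-type and 0.0289 against ΔTAD.

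Ltc4s, which joins leukotriene A to glutathione (chr11:50236461-50238616, minus strand), was at 2.39, 1.91 and 1.76 CPM in wild-type, at 4.01, 4.35 and 4.53 in knock-out and at 6.79, 6.002 and 6.47 in ΔTAD libraries. The libraries fell into 3 separate ranges in that order. Ltc4s rose 2.10-fold in knock-out (log2 fold change 1.07, SE 0.164, adjusted p = 4.99e-06, edgeR) and 3.13-fold in ΔTAD macrophages (1.64, SE 0.151, adjusted p = 1.08e-09, edgeR). The knock-out level was 1.49-fold lower than that of ΔTAD (-0.57, SE 0.130, adjusted p = 0.000932, edgeR). These rest on 29 to 48 counts in wild-type and up to 136 in ΔTAD libraries, and the antisense gene Gm26542 at the same place had 18 to 32 counts. Mgst3, a related glutathione transferase, rose too, from 9.11 ± 0.930 CPM to 18.4 ± 1.20 in knock-out and to 20.5 ± 1.36 in ΔTAD macrophages (SD, n = 3), a log2 fold change of 1.01 (adjusted p = 6.99e-10, edgeR) and 1.18 (adjusted p = 2.36e-11, edgeR). Mgst2, which can also make leukotriene C, had a log2 fold change of -0.24 in knock-out macrophages (adjusted p = 0.00257, edgeR), a call lost without wild-type replicate 2 or 3 or knock-out replicate 1 or 2, at adjusted p from 0.0103 to 0.0191.

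Lta4h, the hydrolase that makes leukotriene B (chr10:93453411-93484875, plus strand), did not pass the test in any comparison. It was at 69.0, 69.2 and 71.8 CPM in wild-type, at 72.3, 70.3 and 73.3 in knock-out and at 73.3, 68.3 and 68.8 in ΔTAD libraries, which all overlap. The log2 fold change was 0.04 (SE 0.0376) in knock-out and -0.0001 (SE 0.0375) in ΔTAD macrophages.

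**Figure D3:**
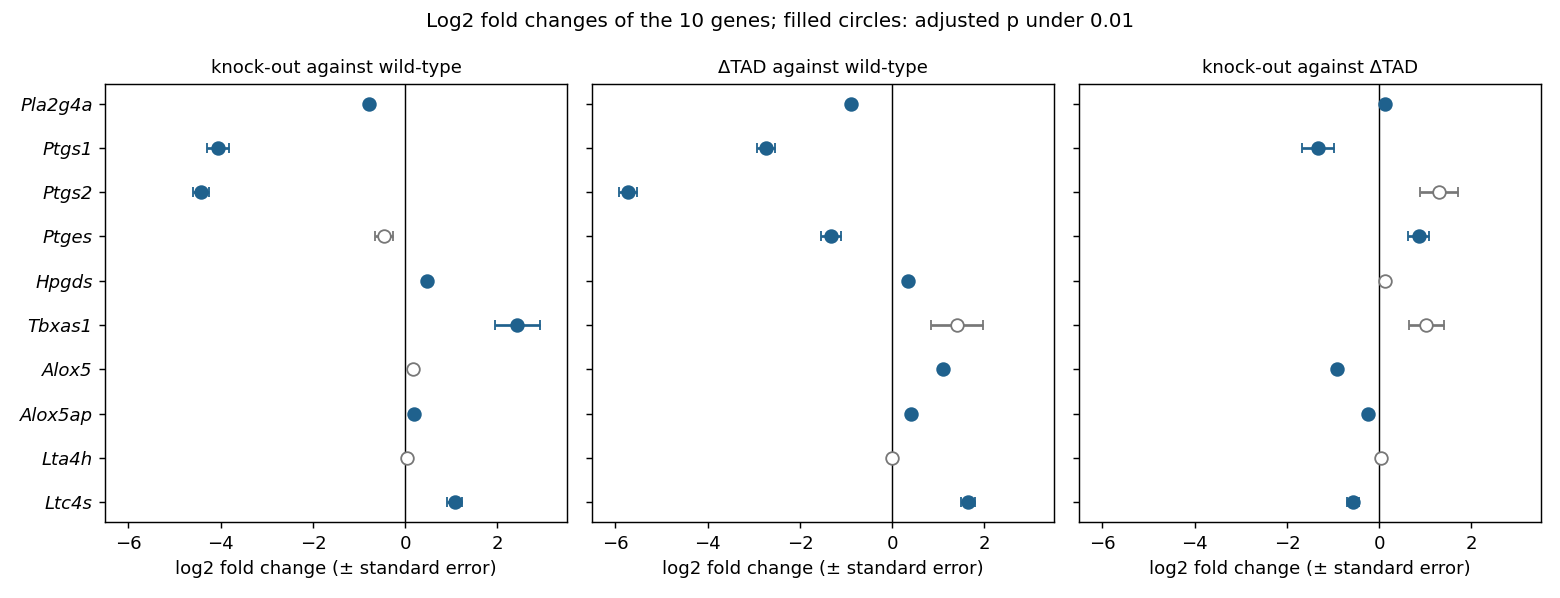
Log2 fold change of the 10 genes (x axis) for knock-out minus wild-type (left), ΔTAD minus wild-type (middle) and knock-out minus ΔTAD macrophages (right), with bars of 1 standard error from edgeR's fit to 9 libraries and filled circles where the adjusted p is under 0.01. The left and middle panels use the same 3 wild-type libraries, and the wild-type level of Tbxas1 is at or under 3 counts in each library. Ptgs2 (-4.42 and -5.73) and Ptgs1 (-4.05 and -2.73) lie furthest below 0 in these panels, and Lta4h lies within 0.04 of 0 in all.

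Between the edited genotypes, 4 of the 10 genes were lower in knock-out than in ΔTAD macrophages (Ptgs1, Alox5, Alox5ap and Ltc4s) and 2 were higher (Ptges and Pla2g4a), while 19.1% and 13.9% of all genes tested were called lower and higher. The median absolute difference of the 10 was 0.72 on the log2 scale, against 0.18 over all genes. The count of higher genes was fragile: it was 0 without knock-out replicate 3 or ΔTAD replicate 2, and 1 without knock-out replicate 2 or ΔTAD replicate 3 or with the replicate number as a block. Of the 4 lower genes, 3 belong to the leukotriene branch, and each of these was also called higher in ΔTAD than in wild-type macrophages. Both comparisons use the same ΔTAD libraries, so these calls are not independent of each other. Without ΔTAD replicate 1, the call was kept for 9 of the 10 genes, with Hpgds as the exception.

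The changes in ΔTAD against wild-type macrophages were also fitted without ΔTAD replicate 1, and all 10 genes kept their call. The log2 fold change of Ptgs2 was then -5.47 and that of Ptgs1 -2.53. That of Ptges was -1.57 and that of Pla2g4a -0.94. Alox5 stood at 1.07, Ltc4s at 1.58, Alox5ap at 0.41 and Hpgds at 0.27. Of the 29 other pathway genes described below, 27 kept their call in this comparison (Ptges2 and Pla2g4c did not) and all 29 in knock-out against ΔTAD.

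By level per length of exon, the order in wild-type macrophages was Alox5ap (67.8 ± 1.13 RPKM, SD, n = 3), Pla2g4a (58.7 ± 1.004), Lta4h (11.5 ± 0.254), Hpgds (9.11 ± 0.333), Alox5 (5.32 ± 0.333), Ptgs2 (4.62 ± 0.0784), Ptgs1 (2.04 ± 0.160), Ltc4s (1.99 ± 0.328), Ptges (1.05 ± 0.233) and Tbxas1 (0.0141 ± 0.00655). Only Ptgs1 and Ltc4s had overlapping libraries and do not differ beyond their spread. Unstimulated wild-type macrophages thus held more Ptgs2 than Ptgs1 transcript, and the first step and the lipoxygenase partner were the most abundant. In knock-out macrophages Ltc4s, at 4.24 RPKM, stood above Ptgs2 (0.215) and Ptgs1 (0.119). In ΔTAD macrophages it stood at 6.33 RPKM, with Ptgs1 at 0.292 and Ptgs2 at 0.0797. Alox5 reached 11.4 RPKM in ΔTAD macrophages, close to Lta4h (11.5) and Hpgds (11.7). With the longest transcript in place of all exons as the length, 4 genes changed their rank in wild-type macrophages, and the mean share of Ptgs2 there was 63.2%.

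Of 61 other genes of eicosanoid metabolism that were listed, 29 passed the filter and 32 did not. Among those 32, 23 were at or under 3 counts in every library, and these include 12 with no count in any library. Of the 29, 9 were lower (31%, against 22.4% of all genes tested), 6 higher (20.7% against 22.8%) and 14 not called in knock-out macrophages. In ΔTAD macrophages 13 were lower (44.8% against 23.4%), 10 higher (34.5% against 26.3%) and 6 not called. Between the edited genotypes 8 were lower (27.6% against 19.1%) and 5 higher (17.2% against 13.9%) in knock-out, which became 3 higher without ΔTAD replicate 3, and 3 lower with library size alone as the scaling. This list, too, was chosen with earlier results known. Their median log2 fold changes, -0.09, -0.11 and -0.15, lay close to those of all genes (-0.00, -0.00 and -0.03), and their median absolute values, 0.25, 0.37 and 0.19, were nearer to the background of 0.24, 0.27 and 0.18 than those of the 10 genes.

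Among the phospholipases and arachidonate handling genes, 12 of 19 were tested, with 3 lower and 1 higher in knock-out and 6 lower and 3 higher in ΔTAD macrophages, beside the shares of all genes given above (22.4% and 22.8%, then 23.4% and 26.3%). Pla2g5, a secreted phospholipase, was at 178, 172 and 171 CPM in wild-type, at 10.0, 10.3 and 12.9 in knock-out and at 28.7, 30.1 and 29.6 in ΔTAD libraries. The 3 genotypes lay far apart. Pla2g5 fell by 3.97 on the log2 scale in knock-out (SE 0.0537, adjusted p = 8.50e-26, edgeR) and fell by 2.56 in ΔTAD macrophages (SE 0.0447, adjusted p = 1.16e-23, edgeR). Faah, which breaks down the arachidonate-derived endocannabinoid anandamide, fell from 10.5 ± 0.442 CPM to 0.651 ± 0.2498 in knock-out and to 2.59 ± 0.660 in ΔTAD macrophages (log2 fold change -4.03 and -2.02, adjusted p = 2.16e-14 and 2.90e-11, edgeR). For both genes the knock-out level was below the ΔTAD level (-1.42 and -2.01, adjusted p = 3.23e-14 and 2.27e-06, edgeR). Pla2g4f, a relative of Pla2g4a, was also lower in knock-out than in ΔTAD macrophages (-3.11, adjusted p = 5.49e-06, edgeR, and -4.37 without knock-out replicate 1). It was at 0.340 ± 0.0875 CPM in wild-type macrophages, at 0.144 ± 0.149 in knock-out and at 1.32 ± 0.293 in ΔTAD macrophages, and rose by 1.99 on the log2 scale in ΔTAD (adjusted p = 7.11e-05, edgeR). Its counts were 5, 6 and 7 in wild-type, 6, 1 and 1 in knock-out and 15, 34 and 27 in ΔTAD libraries. Pla2g4f passed the filter on low counts only through the ΔTAD libraries, where it was highest, so both of its calls are a description. For Pla2g4c, another relative, the ΔTAD value was -0.78 on the log2 scale (adjusted p = 0.00589, edgeR), a call lost without wild-type replicate 2 or 3 or ΔTAD replicate 1 or 3, at adjusted p from 0.0124 to 0.0774.

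Of 9 prostanoid receptor genes, 3 were tested. Ptger4, a receptor for prostaglandin E, had 6, 2 and 5 counts in wild-type libraries, 125, 111 and 137 in knock-out and 94, 135 and 128 in ΔTAD libraries. Its level rose from 0.239 ± 0.107 CPM to 7.02 ± 0.646 and 6.38 ± 0.257 (log2 fold change 4.82 and 4.68, adjusted p = 1.10e-14 and 2.18e-14, edgeR). The wild-type counts were near the floor of 3 counts per library, so the size of these fold changes is uncertain. Ptger4 passed the filter on low counts only through the edited libraries, where it was high, so both calls are a description. Ptger4 rose in the genotypes in which Ptgs1 and Ptgs2 fell, and a link between them was not tested. Knock-out and ΔTAD macrophages differed by 0.14 (SE 0.121, adjusted p = 0.362, edgeR) in Ptger4. Of the remaining tested receptors, Ptgir was called lower in both edited genotypes (log2 fold change -0.67 and -0.76, adjusted p = 3.23e-13 and 2.28e-14, edgeR). Ptger1 was called in neither (0.06 and 0.23, adjusted p = 0.824 and 0.297, edgeR).

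Of 8 genes of leukotriene synthesis, transport and breakdown besides Lta4h and Ltc4s, 5 were tested, with 2 lower and 2 higher in knock-out and 2 lower and 1 higher in ΔTAD macrophages, too few to set against the shares of all genes (22.4% to 26.3%). Cyp4f18, which inactivates leukotriene B, had 62, 24 and 41 counts in wild-type libraries and 0 to 2 in every edited library, at least 13.7-fold lower in knock-out and 14.0-fold lower in ΔTAD macrophages against the floor of 3 counts per library. Of 7 lipoxygenases and partners besides Alox5 and Alox5ap only Cotl1 passed the filter. Cotl1, which binds the lipoxygenase and was picked for naming after its values were seen, rose by 0.29 and 0.49 on the log2 scale (adjusted p = 6.66e-07 and 5.80e-11, edgeR). Of 6 genes of prostanoid inactivation and transport 4 were tested, with 2 lower and 1 higher in knock-out and 3 lower and 1 higher in ΔTAD macrophages, again too few to set against these shares.

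**Figure D4:**
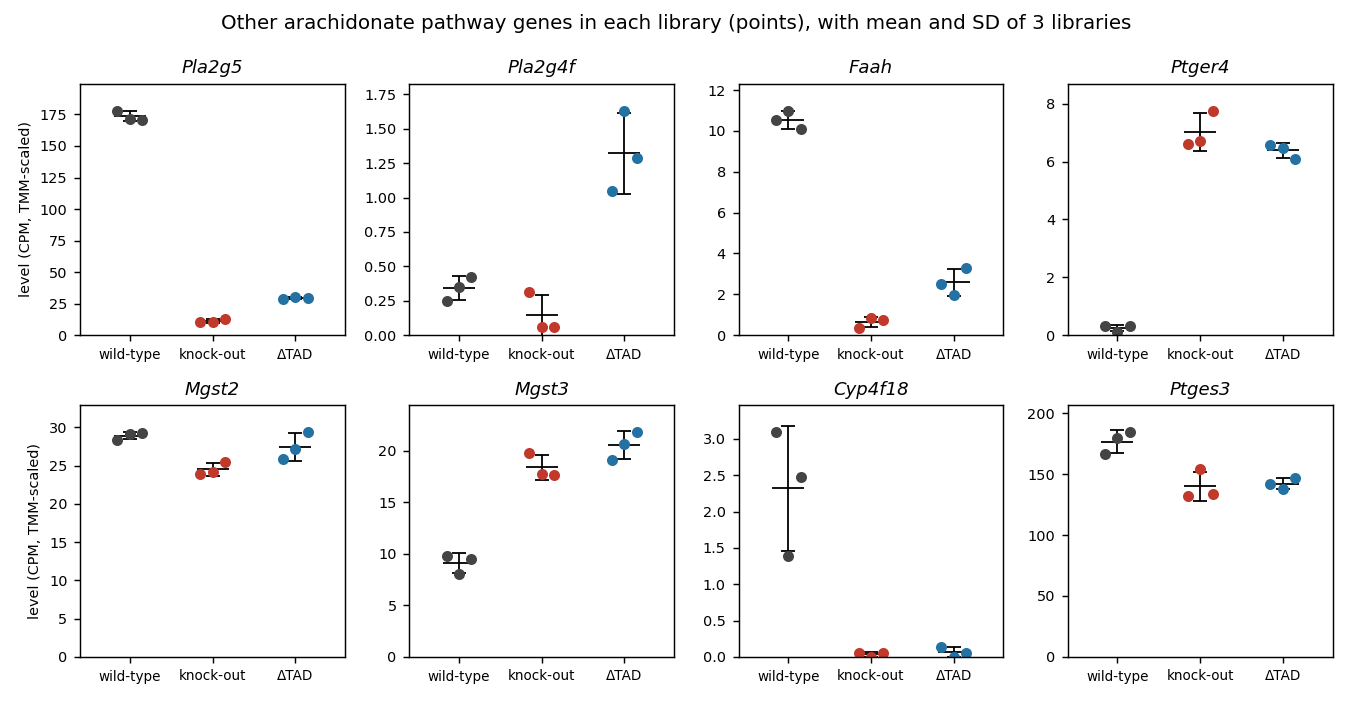
Level of 8 other eicosanoid genes in each library, in CPM on linear axes that start at 0, with points for libraries and lines for the mean and SD of 3. Pla2g5, Faah and Cyp4f18 drop and Ptger4 and Mgst3 rise in both edited genotypes, and Pla2g4f is raised in ΔTAD.

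The stretch of chromosome around each gene moved little. The genes tested within 5 Mb of a member had median log2 fold changes of -0.08 to 0.10 in knock-out and -0.12 to 0.24 in ΔTAD macrophages. The 0.24 was around Hpgds, as given above, whose own value there was 0.35. Its part in the rise of Hpgds was not tested. Whole chromosomes with a member had medians of -0.03 to 0.03 and -0.06 to 0.03.

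For each of the 10 genes, the genes with the most similar pattern were taken as those with the highest Pearson r of log2 CPM over the 9 libraries, which share 3 genotypes. The r of the best 2 for each gene lay between 0.906 and 0.998. Ptgs1 was closest to Nrde2 (0.993) and Arhgdig (0.992), and Ptgs2 to Gm43351 (0.994) and Cfp (0.992), which encodes properdin. For Pla2g4a, the r with Strbp was 0.998. Alox5 was closest to Ppp6r1 (0.995) and Adcy2 (0.994), Alox5ap to Dock5 (0.998) and Usp5 (0.996), and Ltc4s to Cd302 and Slc35b2, both at 0.996. Hpgds was closest to Ankrd12 and Mdfic (0.987 each), Tbxas1 to Ccnyl1 (0.989) and Dvl3 (0.978), and Ptges to Styx (0.970) and Itprip (0.962). Lta4h had the lowest values, 0.912 with Pnma1 and 0.906 with Gm6013.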

How the data were processed

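Total RNA of unstimulated RAW264.7 cells was depleted of ribosomal RNA and sequenced by the authors. Reads were trimmed with Trimmomatic and aligned with HISAT2, listed as versions 0.36 and 2.3.4.3 in the submitters' processing notes, while the methods of the paper name other versions of both, and the authors deposited whole-number HTSeq counts per Ensembl gene for each of 9 libraries, without normalization or filter. The strand and overlap settings of the counting are not given in the sources used here, so overlapping and antisense genes are uncertain. Each list holds 55487 genes and 5 tally lines of uncounted records, which were left out; 46.65% to 53.23% of records were counted on genes. Genotypes and replicate numbers came from the sample labels.

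The members and lists were chosen with earlier results of these data known. The analysis used edgeR 4.0.16 under R 4.3.3. Low counts were filtered by filterByExpr (minimum count 10, minimum total count 15) and scaled by TMM, which gave factors of 0.888 for ΔTAD replicate 1 and 0.999 to 1.027 elsewhere, and 1 quasi-likelihood model with a mean per genotype was fitted to 14312 genes in all 9 libraries (common biological coefficient of variation 0.0468). Genes were called at a Benjamini-Hochberg adjusted p under 0.01, the threshold of the study's methods. To obtain the standard error, the absolute log2 fold change was divided by √F. The floor is 3 counts per library (0.143 to 0.186 CPM) and covers counting error only. RPKM uses the union of exons in GENCODE's annotation of GRCm38. Only the edgeR fit was tested on simulated counts, with known changes placed in genes with higher counts. The other steps and genes near the floor were not tested in this way. Promoters are from RefSeq.

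Named were the 10 genes, and of the pathway lists up to 3 genes per list and comparison with a call and a log2 fold change of 1 or more in size, the isoenzymes of a member's step, and the 2 genes most similar to each member (Pearson r of log2 CPM, prior count 2), of which 1 is not reported here. The alternatives tried were limma-voom (limma 3.58.1), DESeq2 1.42.0, DESeq2's size factors, library size alone, every gene with at least 1 count, only the 2 genotypes compared, an adjusted p under 0.05, the replicate number as a block, and leaving out each library. Same-numbered libraries did not deviate together (r from -0.07 to 0.02 over 9 pairs), and no libraries agreed within sampling noise.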

Additional observations from a re-analysis of the deposited data

How the results depend on the processing

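The 30 comparisons of single genes (10 genes, 3 contrasts) were recomputed under 17 alternatives, and Tbxas1 in ΔTAD against wild-type gave no value with only the 2 genotypes compared, where it failed the filter. Direction and call were kept under all alternatives that gave a value in 18 of the 30. Over these alternatives 472 values kept both, 14 passed the threshold where the reported value did not, 16 lost the call and 7 changed sign. All 7 were for Lta4h in ΔTAD against wild-type (reported as -0.0001). They were 0.022 with every gene with at least 1 count, 0.00123 with the replicate number as a block, and 0.00439 to 0.0187 with a library left out. The left-out fits that kept the sign reached -0.056. None of these was called. The number of the 10 genes higher in knock-out than in ΔTAD macrophages (2) was 5 at an adjusted p under 0.05, 1 with the replicate block and 0 to 3 with a library left out. Of the other pathway genes, the number lower in knock-out than in ΔTAD (8) was 3 with library size alone, and the number higher (5) was 3 to 6 with a library left out. The cause was not tested. Among the recomputed counts of genes, 196 stayed within 1.5 times the reported one and 8 did not. The replicate numbers do not pair the libraries (9 same-numbered pairs, none with r over 0.1), and the block changed no other count. Library size alone moved the median log2 fold change of all genes by -0.085 in ΔTAD against wild-type and by 0.071 in knock-out against ΔTAD, and the share of calls that were higher from 52.9% to 39.6% and from 42.1% to 69.0%. With the longest transcript as the length, 4 of the 10 genes took another rank in wild-type macrophages and the mean Ptgs2 share there was 63.2%. Depth limits Tbxas1, Ptgs1 and Ptgs2 most, with as few as 1, 4 and 2 counts in a library.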

Other observations

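Genes outside the rule for named genes were picked after their values were seen. Ptgir, the prostacyclin receptor, was at 146 ± 6.83 CPM in wild-type macrophages, at 92.3 ± 1.32 in knock-out and at 86.5 ± 4.74 in ΔTAD macrophages (SD, n = 3). It fell by 0.67 and 0.76 on the log2 scale (adjusted p = 3.23e-13 and 2.28e-14, edgeR), while Ptger4 rose. Prxl2b, which makes prostaglandin F, had no count in the wild-type and knock-out libraries and 17, 16 and 8 counts in the ΔTAD libraries. Against the floor of 3 counts per library the ΔTAD level was at least 4.63-fold higher against wild-type and at least 4.59-fold higher against knock-out macrophages. It failed the filter on low counts and was not tested. Ptgr1, a reductase that inactivates prostaglandins and leukotriene B, fell by 0.31 on the log2 scale in knock-out and by 0.97 in ΔTAD macrophages (adjusted p = 0.000614 and 6.54e-11, edgeR).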
